A study of Oryctolagus cuniculus with 34 samples.

Results

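The proteasome is described here in the supraspinatus muscle of rabbits after rotator cuff repair through 4 genes, 2 constitutive subunits, PSMD14 (ENSOCUG00000001418) and PSMA1 (ENSOCUG00000000439), and 2 immune subunits, PSMB8 (ENSOCUG00000002131) and PSMB9 (ENSOCUG00000002139). The 4 genes were taken by name from 23669 genes of the count table, and all 4 were among the 12937 genes with a level over 1 CPM (counts scaled to a fixed library total) in at least 1 library, the set tested. RNA was sequenced from the posterior lateral region of the muscle of both shoulders of 17 skeletally mature female New Zealand White rabbits of about 6 months, 34 libraries in all. The left supraspinatus tendon of every rabbit had been cut (tenotomy) and was repaired 8 weeks later, and muscle was taken 1 (n = 4), 2 (n = 5), 4 (n = 4) or 8 weeks (n = 4) after repair. The right shoulder of the same animal was the control, which the study calls unoperated in one place and sham in another, and its labels describe a sham with a skin cut. Controls therefore came from animals that had been through both operations, and no group had tenotomy without repair, so that tenotomy and repair cannot be told apart here.

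The proteasome is the barrel-shaped protease that degrades proteins tagged with ubiquitin. Its 20S core is built from alpha subunits such as PSMA1, which gate the barrel, and beta subunits, some of which cut. The 19S cap binds tagged proteins, and its subunit PSMD14 removes the ubiquitin chain as the substrate enters. In leukocytes, and in other cells after interferon, the cutting beta subunits are replaced by PSMB8 and PSMB9 among others, which gives the immunoproteasome that shapes peptides for MHC class I. In skeletal muscle the ubiquitin-proteasome pathway is best known for protein breakdown during atrophy.

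Totals on genes were between 9220035 and 28395188 counts over the 33 libraries used (median 12127768). Library names fall into a series with the prefix WRR, which holds 1 and 8 weeks, and one with the prefix X, which holds 2 and 4 weeks. The first was deeper (median 19343431) than the second (median 10625163), and the labels do not say whether they were prepared or sequenced apart. The repair library of rabbit 3 at 8 weeks was left out, which leaves n = 3 for repair at 8 weeks and 16 rabbits with both shoulders. Another library stood apart from its group and was kept: in the repair library of rabbit 59 at 2 weeks, the summed level of 4 stromal markers (PDGFRA, LOX, COL1A1, COL3A1) was 35981 CPM against a group median of 973, that of 9 leukocyte markers was 363 CPM against a median of 28.6, and that of 8 muscle fibre markers, 13095 CPM, was the lowest of its group. The results at 2 weeks that rest on it are therefore also given without it. PSMD14 had 517 to 1752 counts per library, PSMA1 1134 to 3257, PSMB8 26 to 193 and PSMB9 6 to 97. Counting error alone is thus 4.4% and 2.97% of the lowest value of PSMD14 and PSMA1, and 19.6% and 40.8% of that of PSMB8 and PSMB9.

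PSMD14, the deubiquitinase of the 19S cap, fell in the repaired muscle at 2 weeks to 0.523 of the control level. At that time its CPM, scaled by trimmed mean of M-values (TMM), was 113, 94.1, 93.1, 90.3 and 82.7 in the controls of rabbits 59, 60, 61, 62 and 64. In the repaired shoulders of the same rabbits, in the same order, it was 32.8, 53, 60.4, 56.4 and 48.1. Repair was lower in 5 of 5 rabbits and the groups did not overlap, with rabbit 59 holding both the highest control and the lowest repair value. The log2 fold change (log2FC) of repair to control was -0.94 (SE 0.17, 95% confidence interval -1.27 to -0.60), with an adjusted p of 0.00360 by limma-voom with Benjamini-Hochberg adjustment over 12937 genes. A gene is called here at an adjusted p under 0.05, which at 2 weeks held for 15.9% of the genes tested (7.92% lower, 7.95% higher), and 7.84% of genes had no overlap between groups. Without the repair library of rabbit 59 the log2FC of PSMD14 was -0.79 (adjusted p = 0.0110, limma), and without both libraries of that rabbit -0.73 (adjusted p = 0.0341, limma). Those 2 fits called 1.41% and 0.536% of genes lower.

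At 1 week PSMD14 was 63.1, 52.5, 65.5 and 69.0 CPM in the controls of rabbits 5, 6, 7 and 8 and 63.1, 30.4, 47 and 44 CPM in their repaired shoulders. Rabbits 6, 7 and 8 were lower after repair, and rabbit 5 had the same level on both sides. The log2FC was -0.47 (SE 0.19, limma adjusted p = 0.0839), which did not pass the test at a time when 13.7% of genes did. Without the repair library of rabbit 5 it was -0.65 with a limma adjusted p of 0.0288, and over the 8 fits that left out 1 library of that time the adjusted p lay between 0.0288 and 0.299. At 4 weeks PSMD14 was 82.1, 76.8, 84.9 and 81.5 CPM in the controls of rabbits 63, 66, 67 and 68 and 67.1, 57.6, 52.5 and 88.3 CPM after repair. Rabbit 68 alone was higher on the repaired side. At 8 weeks the controls of rabbits 1, 2, 3 and 4 held 59.6, 62.3, 75.3 and 67.1 CPM and the repaired shoulders of rabbits 1, 2 and 4 held 73.0, 62 and 50.4 CPM, 1 higher, 1 level and 1 lower than its control. The log2FC was -0.32 at 4 weeks (limma adjusted p = 0.396) and -0.10 at 8 weeks (limma adjusted p = 0.999), when 0.124% and 0.00773% of genes were called. From highest to lowest mean the PSMD14 levels ran control at 2 weeks (94.6 ± 11 CPM, SD, n = 5), control at 4 weeks (81.3 ± 3.35, n = 4), repair at 4 weeks (66.4 ± 15.8, n = 4), control at 8 weeks (66.1 ± 6.91, n = 4), control at 1 week (62.6 ± 7.13, n = 4), repair at 8 weeks (61.8 ± 11.3, n = 3), repair at 2 weeks (50.2 ± 10.7, n = 5) and repair at 1 week (46.1 ± 13.5, n = 4). All 7 pairs of neighbours in that order overlapped in range.

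**Figure D1:**
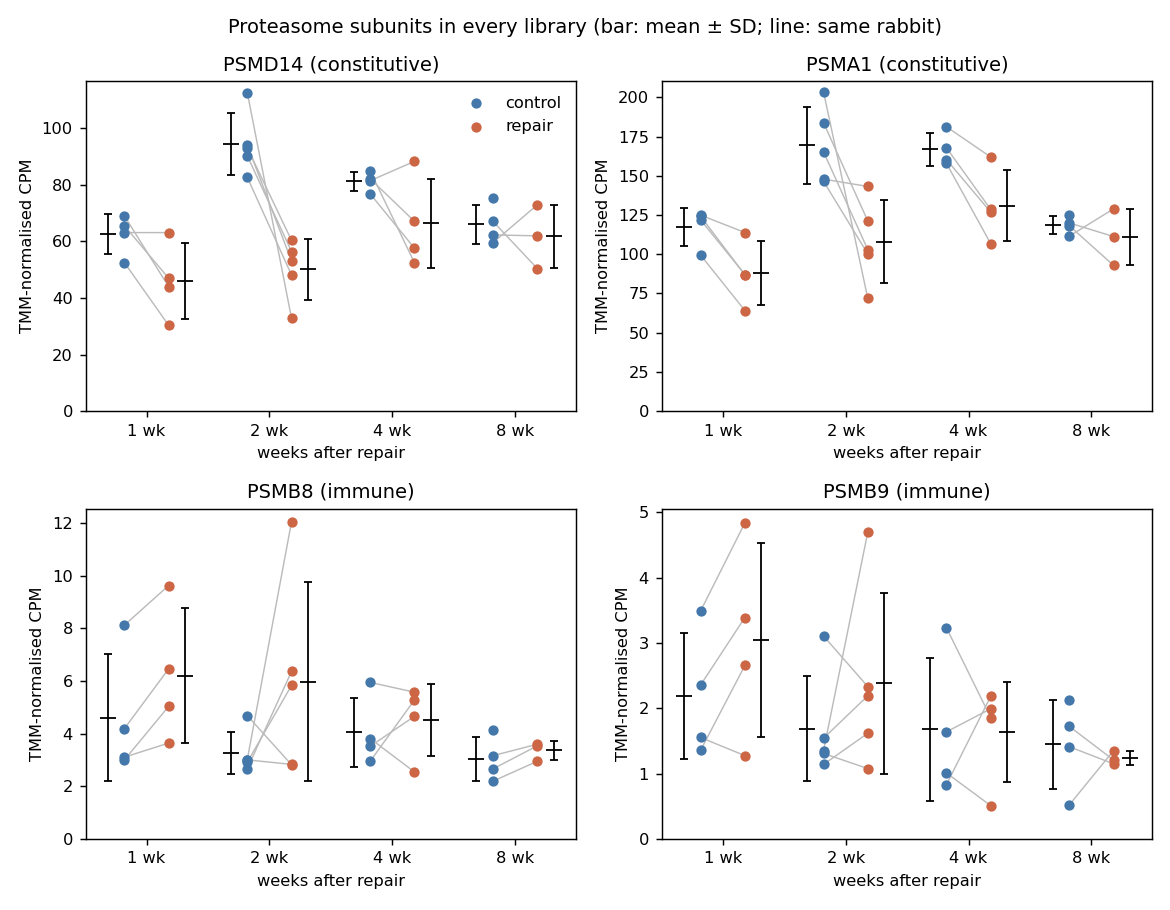
TMM-normalised CPM (vertical axis, linear, from 0) of PSMD14, PSMA1, PSMB8 and PSMB9 in 33 libraries by weeks after repair. Blue points are control and orange points repaired shoulders, grey lines join the shoulders of a rabbit, and bars are the mean ± SD of a group. At 2 weeks all 5 repair points of PSMD14 and PSMA1 lie under all 5 control points, while the groups of PSMB8 and PSMB9 overlap at every time.

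PSMA1, an alpha subunit of the 20S core, fell with PSMD14 at 2 weeks, to 0.630 of the control level. Its CPM at 2 weeks was 203, 184, 148, 165 and 146 in the controls of rabbits 59, 60, 61, 62 and 64 and 72.0, 121, 143, 103 and 100 after repair. Repair was again lower in 5 of 5 rabbits with no overlap of the groups, though in rabbit 61 the shoulders were close together. The log2FC was -0.67 (SE 0.15, 95% confidence interval -0.98 to -0.35, limma adjusted p = 0.00986). Without the repair library of rabbit 59 it was -0.53 (limma adjusted p = 0.0408), and without both libraries of rabbit 59 it was -0.47 and no longer passed (limma adjusted p = 0.0850).

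At 1 week PSMA1 was 125, 99.4, 122 and 124 CPM in the controls of rabbits 5 to 8 and 114, 64.1, 87.1 and 86.9 CPM in their repaired shoulders, lower in all 4 rabbits but with overlapping groups. The log2FC was -0.44 (SE 0.18, limma adjusted p = 0.0894), and -0.57 with a limma adjusted p of 0.0381 once the repair library of rabbit 5 was left out (0.0381 to 0.280 over the 8 such fits). At 4 weeks the controls of rabbits 63, 66, 67 and 68 held 168, 160, 158 and 181 CPM and the repaired shoulders 129, 127, 107 and 162 CPM. Each repaired shoulder was below its own control, and only rabbit 68 reached the range of the controls. At 8 weeks the controls of rabbits 1, 2, 3 and 4 held 112, 120, 125 and 118 CPM and the repaired shoulders of rabbits 1, 2 and 4 held 129, 111 and 92.8 CPM, the first above and the other two below their controls. The log2FC was -0.36 at 4 weeks (limma adjusted p = 0.304) and -0.10 at 8 weeks (limma adjusted p = 0.999). The PSMA1 levels had the same order of groups as those of PSMD14, from 169 ± 24.4 CPM (SD, n = 5) in controls at 2 weeks and 167 ± 10.5 (n = 4) in controls at 4 weeks, through 131 ± 22.9 (repair at 4 weeks, n = 4), 118.7 ± 5.57 (control at 8 weeks, n = 4), 118 ± 12.2 (control at 1 week, n = 4), 111 ± 18 (repair at 8 weeks, n = 3) and 108 ± 26.4 (repair at 2 weeks, n = 5), to 88.0 ± 20.3 in repair at 1 week (n = 4). Again all 7 neighbouring pairs overlapped.

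PSMB8, the immune beta subunit with chymotrypsin-like activity, did not pass the test at any time in the same fit. At 2 weeks it was 3.01, 3.0, 2.91, 2.67 and 4.68 CPM in the controls of rabbits 59, 60, 61, 62 and 64 and 12.1, 2.83, 5.83, 6.37 and 2.82 CPM after repair. Rabbits 59, 61 and 62 were higher after repair, rabbit 60 was near its control and rabbit 64 was lower. The log2FC was 0.76 (SE 0.40, 95% confidence interval -0.06 to 1.58, limma adjusted p = 0.167), and 3 of 5 rabbits were higher. With the rabbit as a fixed replicate block, which compares the shoulders within each animal, it was 0.87 with a limma adjusted p of 0.0376, in a fit that called 31.6% of all genes at 2 weeks. DESeq2 gave 0.89 and an adjusted p of 0.0498, with 31.2% of genes called. Over 13 alternatives the adjusted p ran from 0.0376 to 0.608, and without the repair library of rabbit 59 the log2FC was 0.41 (limma adjusted p = 0.550).

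At 1 week PSMB8 was 8.12, 3.10, 4.19 and 3.0 CPM in the controls of rabbits 5 to 8 and 9.63, 3.64, 6.46 and 5.04 CPM after repair. All 4 rabbits were higher on the repaired side, by less than the differences between rabbits, and rabbit 5 was the highest of both groups. At 4 weeks the controls of rabbits 63, 66, 67 and 68 held 2.95, 3.81, 3.52 and 5.95 CPM and the repaired shoulders 5.28, 2.54, 4.66 and 5.58 CPM, 2 of 4 higher. At 8 weeks the controls of rabbits 1 to 4 held 2.66, 2.19, 4.15 and 3.16 CPM and the repaired shoulders of rabbits 1, 2 and 4 held 3.54, 2.95 and 3.60 CPM, each somewhat above its own control and inside the control range. The log2FC of PSMB8 was 0.45 (SE 0.33), 0.12 (SE 0.45) and 0.17 (SE 0.44) at 1, 4 and 8 weeks, with limma adjusted p of 0.340, 0.915 and 0.999. Mean levels ran from 6.19 ± 2.57 (SD, n = 4) in repair at 1 week and 5.98 ± 3.78 (n = 5) in repair at 2 weeks to 3.04 ± 0.840 (n = 4) in controls at 8 weeks. Between these, in falling order, were 4.60 ± 2.41 (control, 1 week), 4.51 ± 1.37 (repair, 4 weeks), 4.06 ± 1.31 (control, 4 weeks), 3.36 ± 0.358 (repair, 8 weeks) and 3.26 ± 0.810 CPM (control, 2 weeks), and all 7 neighbouring pairs overlapped.

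PSMB9, the immune beta subunit that replaces the caspase-like site, likewise did not pass the test at any time. At 2 weeks it was 1.35, 1.14, 3.11, 1.54 and 1.31 CPM in the controls of rabbits 59, 60, 61, 62 and 64 and 4.70, 1.62, 2.33, 2.19 and 1.08 CPM after repair. Rabbit 59 again held the highest repair value, and rabbits 61 and 64 were lower on the repaired side. The log2FC was 0.46 (SE 0.51, 95% confidence interval -0.60 to 1.51, limma adjusted p = 0.536), and 0.12 without the repair library of rabbit 59 (limma adjusted p = 0.925). At 1 week the controls of rabbits 5 to 8 held 3.49, 1.55, 2.36 and 1.36 CPM and the repaired shoulders 4.84, 1.27, 3.39 and 2.66 CPM, higher in 3 of 4 rabbits. At 4 weeks the values were 1.64, 1.01, 0.828 and 3.23 CPM in the controls of rabbits 63, 66, 67 and 68 and 1.99, 0.508, 2.18 and 1.86 CPM after repair, so that rabbits 63 and 67 were higher and rabbits 66 and 68 lower. At 8 weeks they were 1.72, 0.519, 2.13 and 1.41 CPM in the controls of rabbits 1 to 4 and 1.21, 1.35 and 1.15 CPM in repaired rabbits 1, 2 and 4, all within the control range. The log2FC was 0.36 at 1 week, -0.04 at 4 weeks and -0.08 at 8 weeks, with limma adjusted p of 0.560, 0.979 and 0.999, and the sign at 4 and 8 weeks turned when single libraries were left out. Mean levels in falling order were 3.04 ± 1.49 CPM (repair, 1 week), 2.38 ± 1.39 (repair, 2 weeks), 2.19 ± 0.970 (control, 1 week), 1.69 ± 0.806 (control, 2 weeks), 1.68 ± 1.09 (control, 4 weeks), 1.64 ± 0.763 (repair, 4 weeks), 1.45 ± 0.684 (control, 8 weeks) and 1.24 ± 0.104 (repair, 8 weeks), all SD, and all 7 neighbouring pairs overlapped.

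Within rabbits, the average response of the immune pair stood above that of the constitutive pair early after repair. For each rabbit the log2 ratio of repair to control CPM was averaged over PSMB8 and PSMB9 and, separately, over PSMD14 and PSMA1. At 1 week the constitutive mean was -0.46 ± 0.279 (SD, n = 4) and the immune mean 0.43 ± 0.369, and the difference of the averages was above 0 in 4 of 4 rabbits (0.42 to 1.42). At 2 weeks the constitutive mean was -0.81 ± 0.490 (n = 5) and the immune mean 0.54 ± 0.885, and the difference was above 0 in 5 of 5 rabbits but ran from 0.16 in rabbit 64 to 3.51 in rabbit 59. The single genes did not separate in every rabbit at 2 weeks. PSMB8 was below PSMA1 in rabbit 64 (-0.73 and -0.55), where the immune mean was -0.51, and PSMB9 was below PSMA1 in rabbit 61 (-0.41 and -0.05). Without rabbit 59 the constitutive mean at 2 weeks was -0.60 ± 0.176 (n = 4) and the immune mean 0.21 ± 0.560, and the mean difference fell from 1.35 to 0.81 ± 0.578, above 0 in 4 of 4 rabbits. At 4 weeks the difference was above 0 in 2 of 4 rabbits (mean 0.39 ± 0.952) and at 8 weeks in 2 of 3 (mean 0.33 ± 0.611), where it was smaller than the spread between rabbits. These differences are a description of 4 chosen genes and were not tested. A scaling factor of a library cancels in this difference.

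**Figure D2:**
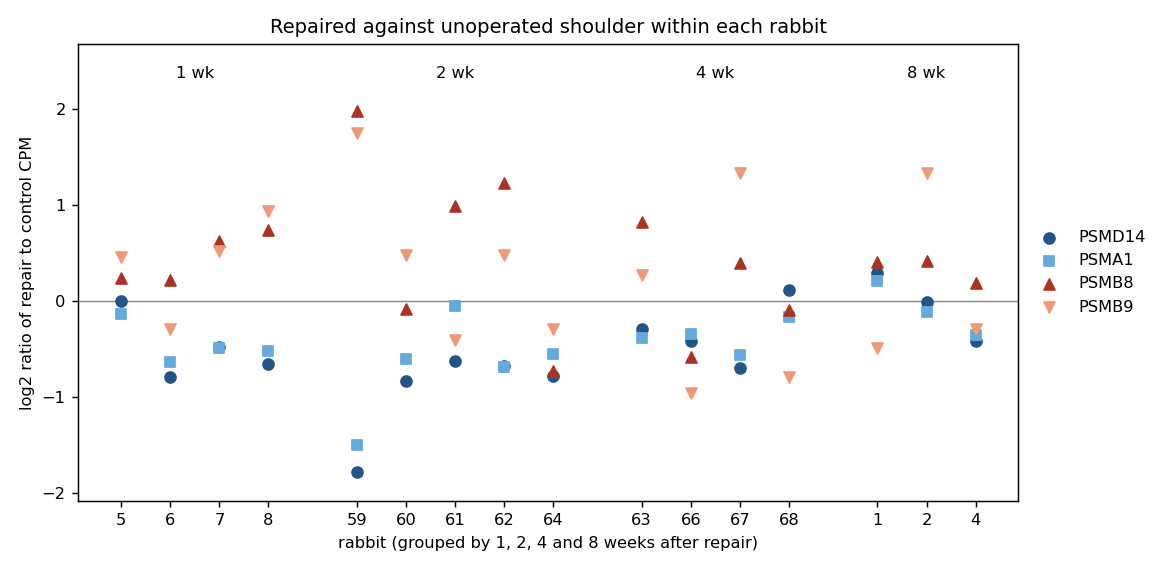
Log2 ratio of repair to control CPM (vertical axis) in each of 16 rabbits (horizontal axis, grouped by 1, 2, 4 and 8 weeks after repair). Dark and light blue mark PSMD14 and PSMA1, red and light red triangles PSMB8 and PSMB9, and the line at 0 is an equal level in both shoulders. The 4 genes are farthest apart in rabbit 59 at 2 weeks, where PSMD14 was at -1.78 and PSMB8 at 1.98.

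Averaged over the 4 time points with equal weight, the repair effect was -0.46 for PSMD14 (SE 0.09, limma adjusted p = 0.000675) and -0.39 for PSMA1 (SE 0.09, limma adjusted p = 0.00134), and both were called. That average called 40.1% of all genes tested, and 17.7% of all genes tested were called lower. The same average was 0.38 for PSMB8 (SE 0.20, limma adjusted p = 0.138) and 0.17 for PSMB9 (SE 0.27, limma adjusted p = 0.634). With the rabbit as a fixed replicate block PSMB8 was called (0.45, limma adjusted p = 0.0279) in a fit that called 46.4% of genes. With edgeR it was 0.40 (quasi-likelihood adjusted p = 0.0913). Whether the effect changed with time was tested as the difference between 2 effects. The contrasts of 2 against 1 and 2 against 8 weeks also set the X series against the WRR series. Week and series cannot be told apart in them. PSMD14 was lower by a further 0.83 at 2 than at 8 weeks (log2FC difference -0.83, SE 0.26, unadjusted p = 0.00360, limma adjusted p = 0.558) and differed by -0.62 between 2 and 4 weeks (unadjusted p = 0.0188 by limma). PSMA1 differed by -0.57 between 2 and 8 weeks (unadjusted p = 0.0273 by limma). No gene was called by limma in any of the 4 such contrasts (0% in each). Of all genes, 683, 359, 694 and 1157 had an unadjusted p under 0.05 for 1 against 8, 2 against 4, 2 against 1 and 2 against 8 weeks, and edgeR called 0 in each and DESeq2 called 3, 1, 11 and 19, none of them a listed proteasome gene of core, cap or immune type. A call at 2 weeks and none at 4 or 8 weeks was thus not shown to be a change with time. For the immune subunits the 95% confidence interval of the difference between 2 and 8 weeks was wide, -0.62 to 1.81 for PSMB8 and -1.07 to 2.15 for PSMB9.

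The other constitutive proteasome genes that could be named lay below 0 with PSMD14 and PSMA1 at 2 weeks, and most were called lower. Symbols could be had for 18 proteasome genes, of which 13 are constitutive subunits: 6 of the 20S core (PSMA1, PSMA4, PSMB1, PSMB2, PSMB3, PSMB7) and 7 of the 19S cap, namely PSMD14, the ATPases PSMC1, PSMC2 and PSMC6 that unfold substrates, and PSMD6, PSMD7 and PSMD13 of the lid and its frame. At 2 weeks 13 of 13 had a log2FC below 0, and limma called 12 of them lower, PSMD14 and PSMA1 included, against 7.92% of all genes. PSMB3 missed the threshold (log2FC -0.31, limma adjusted p = 0.0679). DESeq2 and the rabbit as a fixed replicate block each called 13 of 13, in fits that called 31.2% and 31.6% of all genes. The median log2FC of the 13 was -0.49 while that of all genes was 0.06. PSMD14 was the lowest, followed by PSMA1, PSMC1 (-0.60), PSMD7 (-0.58) and PSMA4 (-0.54), and PSMB1 had the smallest fall that passed (-0.36, limma adjusted p = 0.0445). Without the repair library of rabbit 59 only PSMD14, PSMA1, PSMA4 and PSMC1 were called, and without both libraries of that rabbit only PSMD14 was, while 13 of 13 stayed below 0 in both fits (medians -0.36 and -0.33). Of the 13 names, 10 come from the study's list of co-expression modules, which was built on these repair libraries, so that their common direction is not independent evidence. The other 3 come from a table in order of identifiers. Of these PSMA1 and PSMD14, members chosen with earlier results of these data known, were called at 2 weeks, and PSMB3 was not.

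At 1 and 4 weeks limma called none of the 13 constitutive genes (5 and 3 had an unadjusted p under 0.05, edgeR called 0 at both times and DESeq2 0 and 1), though 13 of 13 lay below 0 at both times (medians -0.28 and -0.22), and at 8 weeks 12 of 13 did (median -0.06). Scaling bears on these signs. TMM centres the bulk of genes near 0, and with library totals alone the median of all genes moved from 0.05 to 0.47 at 1 week, from 0.06 to 0.29 at 2 weeks and from 0.05 to 0.32 at 4 weeks. Under totals alone 13 of 13 constitutive genes were still below 0 at 2 weeks, though the listed proteasome genes called lower went from 12 to 4. Below 0 under totals alone were only 2 of 13 at 1 week and 5 of 13 at 4 weeks, and PSMD14 was at -0.05 at 1 week. At 1, 2 and 4 weeks 13 of 13 lay below the median of all genes under either scaling, PSMD14 by 0.52 at 1 week under TMM and 0.53 under totals. Of the calls over all genes, the share of higher ones moved from 49.7% to 94.3% at 1 week and from 50.1% to 75.4% at 2 weeks.

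The listed genes outside core and cap were the activator and an inhibitor of the core. PSME1 and PSME2 form the interferon-inducible 11S activator, which opens the core without ubiquitin. PSME1 rose at 1 week (log2FC 0.60, SE 0.19, limma adjusted p = 0.0416, no overlap of the groups), when 6.81% of genes rose and 6.88% fell and 16.1% of genes were higher in repair with no overlap. That call was lost with all 34 libraries (0.60, limma adjusted p = 0.329), with no filter on low counts (0.58, limma adjusted p = 0.0680) and in 7 of the 8 fits that left out 1 library of that time (limma adjusted p = 0.0360 to 0.120), where it held only without the repair library of rabbit 8. PSME2 was at 0.46 at 1 week (limma adjusted p = 0.0616), and 2 listed proteasome genes in place of 1 were called higher with the rabbit as a fixed replicate block, a fit that called 26.3% of all genes. At 2 weeks the log2FC of PSME1 and PSME2 was 0.08 and 0.09 (limma adjusted p = 0.763 and 0.696), or 0.21 and 0.09 once the repair library of rabbit 59 was left out. PSMF1, an inhibitor of the core, was at 0.03, -0.22, -0.22 and 0.04 at 1, 2, 4 and 8 weeks and was called at none of them. Among 4 genes of substrate delivery and proteasome supply, UBQLN1, a shuttle that carries tagged proteins to the proteasome, fell at 1 week (-0.41, limma adjusted p = 0.0411) and 2 weeks (-0.58, limma adjusted p = 0.00522). At 2 weeks it was still called without the repair library of rabbit 59 (-0.51, limma adjusted p = 0.0194) and without both libraries of that rabbit (-0.45, limma adjusted p = 0.0472). At 1 week it lost the call in 7 of the 8 fits that left out 1 library, holding only without the repair library of rabbit 8, and was at 0.015 under totals alone. NFE2L2, a transcription factor of the oxidative stress response, rose at 1 week (0.53, limma adjusted p = 0.0230), a call lost without the control of rabbit 5 or 7 or the repair library of rabbit 6 (limma adjusted p up to 0.0879), and VCP and UFD1, the segregase and its cofactor, were called at no time.

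**Figure D3:**
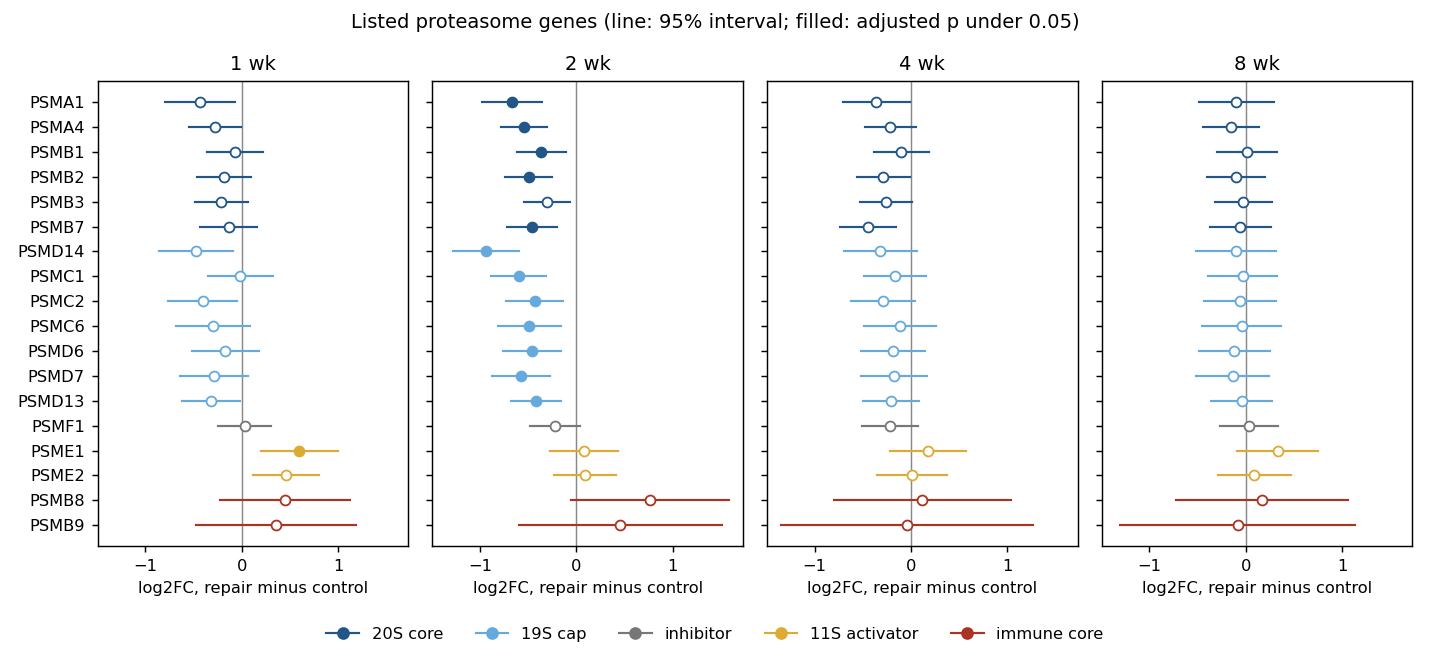
Log2FC of repair minus control (horizontal axis) for 18 listed proteasome genes (rows), with 1 panel each for 1, 2, 4 and 8 weeks after repair. Lines are 95% confidence intervals, filled points have an adjusted p under 0.05, and colours mark the 20S core, 19S cap, inhibitor, 11S activator and immune subunits. At 2 weeks 12 of 13 core and cap genes are filled and left of 0, and at 1 week PSME1 is the only filled point.

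Genes that work with the immune subunits in antigen presentation, or that interferon is known to induce, lay on the same side as PSMB8 and PSMB9 at 1 and 2 weeks. Of 12 such genes, 12 were above 0 at 1 week and 12 at 2 weeks (medians 0.58 and 0.66, all genes 0.05 and 0.06), but limma called only 1 at each time, when it called 13.7% and 15.9% of all genes. The list was chosen with earlier results of these data known, so that its common direction is not independent evidence. TAP1, TAP2, PARP9, PARP12, PARP14 and IRF7 in it are also among the genes most like PSMB8 or PSMB9 in these libraries. At 1 week edgeR called 1, DESeq2 2 and the rabbit as a fixed replicate block 4, in fits that called 12.1%, 17.9% and 26.3% of all genes. At 2 weeks they called 4, 6 and 5, with 28.7%, 31.2% and 31.6% of all genes called. Without the repair library of rabbit 59 limma called none of the 12 at 2 weeks and 2.62% of all genes, 10 of 12 were above 0 and the median was 0.34. IFNGR2, a chain of the interferon gamma receptor, rose at 1 week (1.35, limma adjusted p = 0.0232), a call lost without the control of rabbit 5 or 6 or the repair library of rabbit 5 or 7 (limma adjusted p up to 0.0749). PDIA3, a chaperone of MHC class I loading, rose at 2 weeks (0.71, limma adjusted p = 0.0390). Its CPM was 103, 80.5, 66.4, 81.4 and 77.2 in the controls of rabbits 59, 60, 61, 62 and 64 and 364, 102, 99.5, 145 and 81.1 after repair, so that repair was higher in 5 of 5 rabbits and rabbit 59 lay far above the rest. Its log2FC was 0.37 when that repair library was left out (limma adjusted p = 0.146) and 0.46 when both libraries of the rabbit were (limma adjusted p = 0.105). The call was also lost without the control of rabbit 60, 61, 62 or 64 and without the repair library of rabbit 62. The peptide transporters TAP1 and TAP2 were at 0.47 and 0.33 at 1 week and at 0.50 and 0.62 at 2 weeks and did not pass. The same held for NLRC5, an activator of MHC class I genes (1.59 at 2 weeks, limma adjusted p = 0.117). At 4 weeks 11 of 12 were above 0 (median 0.32) and at 8 weeks 6 of 12 (median -0.0040), with none called by limma, edgeR or DESeq2 and none at an unadjusted p under 0.05.

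The summed level of the leukocyte markers was highest in the repair library of rabbit 59 at 2 weeks, as PSMB8 was. PSMB9 was highest in the repair library of rabbit 5 at 1 week (4.84 CPM, against 4.70 CPM in that of rabbit 59). Most of the leukocyte sum in rabbit 59 came from MRC1 (126 CPM) and HLA-DQB1 (124 CPM). Of the single markers, DOCK8 and IRF8 were highest elsewhere, at 27.7 CPM in repair at 1 week and 19.4 CPM in a control at 4 weeks. In bulk muscle, more cells of a type cannot be told apart from more RNA of that type per cell. The summed level of 9 leukocyte markers (CORO1A, ITGAM, MRC1, FCGR1A, DOCK8, IRF8, MYO1F, HLA-DQB1, HLA-DOA) was 25.2 to 32.9 CPM in controls and 47.1 to 114 CPM in repair at 1 week, and 17.4 to 28.7 against 20.4 to 363 CPM at 2 weeks, where the repair median was 28.6 CPM. At 4 weeks it was 17.4 to 33.8 against 15.6 to 46.6 CPM, and at 8 weeks 25.9 to 44.2 against 35.7 to 56.2 CPM. The sums did not overlap at 1 week and did at the other times. Singly, 8 of 9 markers were above 0 at 1, 2 and 4 weeks (medians 1.48, 1.58 and 1.29), with 1 called at 1 week, DOCK8 (1.48, limma adjusted p = 0.0203), and none at 2 or 4 weeks. The marker that went the other way, IRF8, was at -0.53, -0.29 and -0.40 at these times and at -0.53 at 8 weeks. DOCK8 lost its call without the control of rabbit 5 or 7 or the repair library of rabbit 6 (limma adjusted p up to 0.0716). At 2 weeks 2 had an unadjusted p under 0.05, and edgeR and DESeq2 called 7 each, while they called 28.7% and 31.2% of all genes. With the rabbit as a fixed replicate block, 4 of 9 were called at 1 week and 6 of 9 at 2 weeks, against 26.3% and 31.6% of all genes. At 4 weeks none had an unadjusted p under 0.05 and none was called by edgeR, DESeq2 or the block. At 2 weeks 7 of 9 were above 0 with a median of 0.70 once the repair library of rabbit 59 was left out. None of the 9 was at 0 throughout a group. The 8 muscle fibre markers (DES, TNNT3, ATP2A1, CACNA1S, PYGM, SYPL2, ENO3, CMYA5), the labelled tissue's own genes, had a summed level of 10530 to 99632 CPM over 33 libraries and median log2FC of -0.76, -0.23, -0.38 and -0.12 at 1, 2, 4 and 8 weeks, with 1 called lower at 2 weeks. The 4 stromal markers had medians of 2.54, 2.08, 1.61 and 0.69, the 2 adipocyte markers (ADIPOQ, LIPE) 1.70, 1.25, 2.08 and 0.78, and the 3 endothelial markers (CDH5, VWF, ROBO4) 0.37, 0.46, 0.19 and 0.04. Limma called 1 stromal and 2 adipocyte markers higher at 1 week, with 13.7% of all genes called. At 2 weeks it called 2 stromal, 1 adipocyte and 1 endothelial marker higher, with 15.9% called, and at 4 and 8 weeks none. In the 8 fits that left out 1 library of 1 week, LOX stayed called in 0, ADIPOQ in 2 and LIPE in 3. At 2 weeks without the repair library of rabbit 59 the medians were 0.08 (muscle fibre), 1.23 (stromal), 1.21 (adipocyte) and 0.29 (endothelial). None of these markers was called in that fit, which called 2.62% of all genes. Without both libraries of rabbit 59 the medians were -0.14, 1.29, 1.25 and 0.36 in the same order. Again none was called, with 0.888% of all genes called. The control of rabbit 59 had the lowest muscle fibre sum of its group (23366 CPM), and the sign of that median turned on it. The part of cell make-up in the subunit results was not tested.

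Across the 16 rabbits, the log2 ratio of the summed leukocyte markers went up with that of PSMB8 (Pearson r = 0.729, permutation p = 0.00176, adjusted 0.00440; Spearman rho = 0.609, permutation p = 0.0144, adjusted 0.0359) and with that of PSMB9 (r = 0.728, permutation p = 0.00106, adjusted 0.00353; rho = 0.735, permutation p = 0.00182, adjusted 0.00910). It went down with that of PSMA1 (r = -0.785, permutation p = 0.000640, adjusted 0.00320; rho = -0.632, permutation p = 0.00989, adjusted 0.0330). For PSMD14 r was -0.657 (permutation p = 0.00801, adjusted 0.0160) but rho -0.382 (permutation p = 0.143, adjusted 0.179), and r was -0.192 without rabbits 59 and 68, so that this relation rests on them. The rabbits 59 and 68 lie farthest from the median of the leukocyte ratio, and without them r was 0.516 for PSMB8, 0.533 for PSMB9 and -0.563 for PSMA1. Within the 9 rabbits of 2 and 4 weeks r was 0.765 for PSMB8, 0.830 for PSMB9, -0.872 for PSMA1 and -0.757 for PSMD14 (adjusted exact permutation p = 0.0257, 0.0182, 0.0182 and 0.0302). By rank, only PSMA1 passed there (rho = -0.833, adjusted exact permutation p = 0.0413), while PSMB8, PSMB9 and PSMD14 did not (rho = 0.60, 0.767 and -0.517, adjusted exact permutation p = 0.154, 0.0510 and 0.202). Within the 7 rabbits of 1 and 8 weeks r was 0.428, 0.429, -0.658 and -0.541 in the same order (adjusted exact permutation p = 0.577, 0.577, 0.532 and 0.532), and no rho passed (adjusted exact permutation p = 0.393 for each). All relations are two-sided, 10 were computed, and the ratios of 1 rabbit share their 2 libraries and scaling. Rabbits were permuted without regard to week, here and for the relations among members. A relation between rabbits and a change with week therefore cannot be told apart in these p-values, also within a series, which holds 2 weeks.

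**Figure D4:**
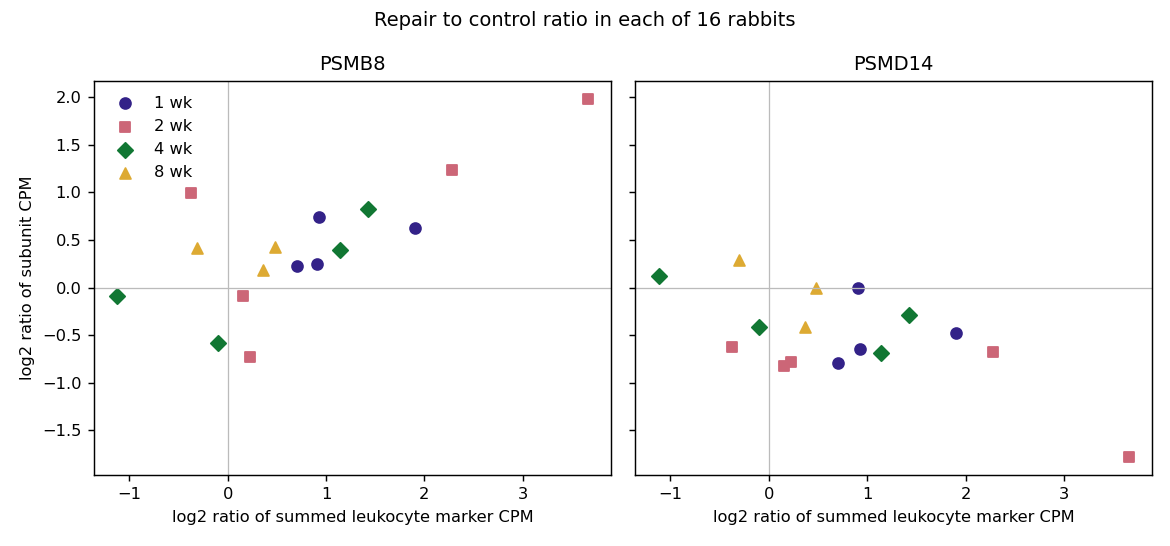
Log2 ratio of repair to control for PSMB8 (left) and PSMD14 (right) on the vertical axes against the log2 ratio of the summed CPM of 9 leukocyte markers on the horizontal axes. Each point is 1 of 16 rabbits, with colour and shape for weeks after repair. The point at the far right of both panels is rabbit 59 at 2 weeks, with a leukocyte ratio of 3.66, and r was 0.729 for PSMB8 and -0.657 for PSMD14.

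The constitutive members were also tied to each other, while the immune pair passed by r alone and only over all 16 rabbits. The ratios of PSMD14 and PSMA1 had r = 0.920 over 16 rabbits (permutation p = 2e-05, adjusted 0.0002; rho = 0.859, permutation p = 0.0001, adjusted 0.001), 0.760 without rabbits 1 and 59, 0.985 within the 7 rabbits of 1 and 8 weeks (adjusted exact permutation p = 0.00397) and 0.880 within the 9 of 2 and 4 weeks (adjusted exact permutation p = 0.0202), where rho was 0.767 (adjusted exact permutation p = 0.0510). Those of PSMB8 and PSMB9 had r = 0.602 (permutation p = 0.0130, adjusted 0.0217) and rho = 0.497 (permutation p = 0.0537, adjusted 0.107), 0.410 without rabbits 59 and 64, and neither series alone passed (r = 0.555 and 0.664, adjusted exact permutation p = 0.532 and 0.0660). Between the pairs r was -0.436 to -0.546 over 16 rabbits, where only PSMA1 with PSMB9 passed by r (adjusted permutation p = 0.0358) and none passed by rho (adjusted permutation p = 0.113 for PSMA1 with PSMB9, rho = -0.471). Without rabbits 1 and 59 the relation of PSMA1 with PSMB9 was r = -0.197, so that it rests on them over all rabbits. Within the 9 rabbits of 2 and 4 weeks it was -0.802 (adjusted exact permutation p = 0.0182; rho = -0.850, adjusted exact permutation p = 0.0413) and within the 7 of 1 and 8 weeks -0.107 (adjusted exact permutation p = 0.917). PSMD14 with PSMB9 also passed by r in those 9 rabbits (-0.747, adjusted exact permutation p = 0.0257) but not by rho (-0.750, adjusted exact permutation p = 0.0510).

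The constitutive pair also differed between the controls of the library name series. In controls of 1 and 8 weeks PSMA1 was lower than in controls of 2 and 4 weeks by a log2 difference of -0.51 (SE 0.12, limma adjusted p = 0.00495) and PSMD14 by -0.45 (SE 0.13, limma adjusted p = 0.0179). That comparison called 15.5% of all genes tested, with 7.58% of all genes tested called lower, and it called 12 of 13 constitutive proteasome genes (median -0.44, all genes 0.03). PSMB8 was at -0.01 (SE 0.30) and PSMB9 at 0.08 (SE 0.39), with limma adjusted p of 0.980 and 0.914. Series, week and animals cannot be told apart here. The repair effects at each time were taken within 1 series, so that a series difference alike in both shoulders cancels in them. Whether it was alike in both shoulders was not tested.

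Over the 33 libraries, after the mean of each series was subtracted, the named genes with the log2 CPM most like each member fell into separate groups for the constitutive and the immune subunits. Likeness is Pearson's r over 33 libraries that share their groups, among 1603 or 1604 genes named in the table in order of identifiers, and carries no p. For PSMD14 the closest were PSMA1 (r = 0.957), TXNL1, a thioredoxin-like protein that binds the 19S cap (0.903), WDR26, a subunit of a ubiquitin ligase (0.890), UGP2 of glycogen synthesis (0.887) and CWC15 of the spliceosome (0.878). For PSMA1 they were PSMD14, TXNL1 (0.941), WDR26 (0.921), KCMF1, a ubiquitin ligase (0.904), and CWC15 (0.893). For PSMB8 they were PARP9 (0.788), PARP12 (0.776), PARP14 (0.768), TAP2 (0.760) and MOV10 (0.756), of which the PARP genes and MOV10 are known to be induced by interferon. PSMB9, not a candidate, had r = 0.786 with PSMB8, above PARP12. For PSMB9 they were PSMB8 (0.786), TAP1 (0.751), PARP14 (0.736), TAP2 (0.709) and the interferon regulator IRF7 (0.700). Between a constitutive and an immune member r was -0.15 to -0.32. On the rabbit assembly mOryCun1.1 of RefSeq, PSMB9, TAP1, PSMB8 and TAP2 stand next to each other in this order in the MHC region, beside RLA-DMB.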

How the data were processed

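The authors aligned reads of stranded poly(A) libraries with STAR to OryCun2.0 and quantified them with RSEM on the Ensembl annotation. The deposited values are the expected counts of each gene, unscaled, and all 33 values of each of the 4 members are whole. Muscle of both shoulders of 17 rabbits was measured. For the fit with limma-voom, 33 libraries were used, genes needed a CPM over 1 in 1 or more libraries, TMM gave the scaling, and treatment and time formed 1 factor of 8 groups (R 4.3.3, edgeR 4.0.16, limma 3.58.1). Adjustment was Benjamini-Hochberg over all genes tested in a contrast. Repair was set against control at each time and over all times, effects were compared between times, and controls between the WRR and X series of library names. Codes in the labels give the time, taken as 8 weeks between tenotomy and repair plus the weeks since repair. DESeq2 1.42.0 and edgeR quasi-likelihood took counts rounded to whole numbers as alternatives, and the others were scaling, filters, sample weights, subsets, pairing and each library left out in turn. Shoulders of a rabbit come from the same animal: residuals correlated at 0.0351 to 0.371 (median 0.215, over 0.1 in 15 of 16 rabbits), and the correlation estimated by duplicateCorrelation was 0.174. Correlations used 100000 resamples or, within series, all permutations (Python 3.11.15, NumPy 2.4.6, SciPy 1.17.1). Figures used matplotlib 3.10.9. Scripts were tested on simulated data.

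Members and gene lists were chosen with earlier results of these data known. Genes named are the 4 members, the listed genes, and for each member the 5 most like it. Symbols are those of human orthologs from the study's tables, which also hold the authors' fold changes and p-values, none of them used. The RefSeq table at hand shares no identifier with the count table and served only for gene order. From the lists, 2 genes are not reported here and stay out of all counts, medians and sums over them. Coordinates and sequences were not used here, and a planned search for promoter motifs was not run. Gene lengths were not used, so levels are compared within a gene. The marker sums are an exception: they add the CPM of different genes and weigh each gene by its CPM.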

Additional observations from a re-analysis of the deposited data

Results flagged for a closer look

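A value was set apart when the gap between it and its nearest neighbour took up most of the range of its group, in groups of 4 or 5 libraries. This was so for 3 of 28 groups of values, and chance alone sets apart about 1 in 20 groups. PSMA1 in the control of rabbit 6 at 1 week was the lowest of its group at 99.4 CPM, with the nearest other control at 122 CPM. PSMB8 in the control of rabbit 64 at 2 weeks was the highest of its group at 4.68 CPM, with the next at 3.01 CPM. PSMB9 in the control of rabbit 61 at 2 weeks was the highest of its group at 3.11 CPM, with the next at 1.54 CPM.

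The library left out of the fits, the repaired shoulder of rabbit 3 at 8 weeks, held high levels of both immune subunits, and only the alternative with all 34 libraries uses it. It had the lowest total of the 34 (8756033 counts), and the paper removed an experimental sample of 8 weeks at its quality check of reads. Whether its levels come from the muscle or from the quality of the library was not tested. Scaled with all 34 libraries, PSMB8 was 44.4 CPM in it against 2.14 to 4.08 CPM in the 4 controls of 8 weeks, and PSMB9 was 16.9 CPM against 0.506 to 2.09 CPM. PSMD14 was 18.5 CPM against 58.1 to 74.0 CPM and PSMA1 52.9 CPM against 109 to 123 CPM in the same library.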

How the results depend on the processing

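Of 865 values recomputed under alternatives, 684 kept their direction and side of the threshold (counts stayed within 1.5 times) and 181 did not: 124 lost a call (120 of them in named genes outside core and cap), 9 gained one, 32 moved and 16 changed sign. At 2 weeks PSMD14 stayed called in 12 of 13 alternatives and PSMA1 in 10 of 13, and both in all 10 fits that left out 1 library. Not called were the libraries of 2 weeks alone (PSMD14 -0.93, limma adjusted p = 0.0948; PSMA1 -0.66, adjusted p = 0.157), those of 2 and 4 weeks alone (PSMA1 -0.68, adjusted p = 0.0552) and both libraries of rabbit 59 left out (PSMA1 -0.47). The 2-week libraries alone called 5 genes of 12630.

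Newly called were, under sample quality weights, PSMD14 and PSMA1 at 1 week (-0.44 and -0.40) and PSMA1 at 4 weeks (-0.45), and PSMA1 at 1 week in the libraries of 1 and 8 weeks alone (-0.45). With the rabbit as a fixed replicate block PSMB8 was called at 2 weeks (0.87) and over all times (0.45), and DESeq2 called it at 2 weeks (0.89). The paired fits changed no other call of a member. PSMB9 changed sign at 8 weeks with 34 libraries (0.46), totals alone (0.035), the replicate block (0.041) and quality weights (0.031), and at 4 weeks with totals alone (0.25). PSMB8 changed sign at 4 weeks with quality weights (-0.048) and, between controls of the series, with edgeR (0.041).

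Leaving out 1 library moved log2FC at 1 week over -0.65 to -0.29 (PSMD14) and -0.57 to -0.30 (PSMA1), at 4 weeks over -0.016 to 0.37 (PSMB8) and -0.31 to 0.45 (PSMB9), and at 8 weeks over -0.23 to 0.034 (PSMD14), -0.22 to 0.018 (PSMA1) and -0.46 to 0.14 (PSMB9). At 2 weeks it moved PSMD14 over -1.01 to -0.79, PSMA1 over -0.78 to -0.53, PSMB8 over 0.41 to 0.99 and PSMB9 over 0.12 to 0.70.

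Of 18 listed proteasome genes, 12 were called lower at 2 weeks, but 3 with all 34 libraries, 4 with totals alone, 7 with quality weights, 0 in the 2-week libraries alone, 1 in those of 2 and 4 weeks alone and 1 without rabbit 59. Leaving out 1 library gave 4 to 13, with 7 without the control of rabbit 59, 60 or 64, 4 without the repair of rabbit 59 and 6 without that of rabbit 62. Called lower at 1 week were 0, but 5 with quality weights, 3 in the libraries of 1 and 8 weeks alone and 0 to 2 with 1 library left out (2 without the repair of rabbit 5). Called lower at 4 weeks were 0, but 1 by DESeq2 and 3 with quality weights. Called higher at 1 week was 1, but 0 with 34 libraries or no filter, 5 with totals alone, 2 with edgeR, DESeq2, either replicate block or quality weights, and 0 to 1 with 1 library left out (0 without any 1 of the 4 controls or the repair of rabbit 5 or 7). Called higher at 2 weeks were 0, but 1 by DESeq2 and by the fixed block.

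Among called genes outside core and cap, UBQLN1 at 1 week changed sign with totals alone (0.015). The alternatives for these genes, the edgeR and block fits of the mean effect, edgeR between control series and the values without rabbit 59 were chosen after seeing the data. Causes of these differences were not tested. The immune subunits, with as few as 6 counts, limit what their intervals can show: at 2 weeks a rise of PSMB8 by 1.58 on the log2 scale and no rise both lie inside the interval.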
